A study of Mus musculus with 12 samples.

Results

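The genes described here are 43 genes of T cell receptor and NF-kB signalling, taken by symbol from a list, and all 43 were found among the 24421 gene symbols of the deposited count table. All 43 were also among the 12461 genes with enough counts to be tested. By role they are 4 receptor chains, 5 coreceptors and surface regulators, 3 proximal kinases, 8 adaptors and effectors, 10 negative regulators, 3 genes of the pathway through Bcl10 and Malt1, 3 NFAT factors, 5 NF-kB factors and 2 NF-kB inhibitors. They were measured by bulk RNA sequencing of mouse regulatory T cells (Tregs), the Foxp3-expressing CD4 T cells that restrain immune responses. All mice carried R26tomato+/+ and Foxp3eGFPERT2+/+, a tamoxifen-activated recombinase driven from the Foxp3 locus with a tomato reporter. All received tamoxifen, 2 mg/kg intraperitoneally for 5 days, with harvest 10 days later. Knockout (KO) Tregs came from mice with CD25FL/FL, which lets tamoxifen remove Il2ra, the gene of the interleukin-2 receptor alpha chain CD25, in Tregs. Wild-type (WT) Tregs came from mice with CD25WT/WT. Sorting on a surface marker set central Tregs (cTreg) apart from effector Tregs (eTreg), after gates on viability, CD4, GFP and tdTomato. KO Tregs were further gated as CD25-low. The 4 groups, KO cTreg, WT cTreg, KO eTreg and WT eTreg, had 3 libraries each, and each library pooled spleen and lymph nodes of 2 to 3 mice. In the labels, the CD25 alleles of the genotype field are the reverse of what the sample titles and cell types say; groups were set by the titles.

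As background, a T cell receptor that meets its ligand is phosphorylated by Lck on the CD3 and zeta chains, which recruits ZAP-70. ZAP-70 then builds a scaffold of LAT, SLP-76 and Gads on which phospholipase C gamma 1 makes the messengers that open calcium channels, activate Ras and activate protein kinase C theta. Calcium drives NFAT factors into the nucleus, and protein kinase C theta acts through BCL10 and MALT1 on the IkB kinases to release NF-kB. Tregs need receptor signals and c-Rel for their differentiation and function, and interleukin-2 received through CD25 is a main survival signal for them.

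Total counts were 14567313 to 19121577 per library, and levels are given as CPM, counts scaled to a common total of the tested genes after TMM normalisation. Il2ra, the targeted gene, stood at 122, 112 and 113 CPM in KO cTreg against 576, 523 and 579.8 CPM in WT cTreg. In eTreg it was at 125, 116 and 132 CPM in KO eTreg against 464, 562 and 542 CPM in WT eTreg. The KO cells were also selected for low CD25. Foxp3, the defining factor of Tregs, was at 227 ± 8.65 CPM in KO cTreg against 393 ± 12.6 CPM in WT cTreg. In eTreg it was at 176 ± 15.3 CPM in KO eTreg against 244 ± 12.9 CPM in WT eTreg (SD, n = 3 each). Ribosomal RNA from Rn45s held 18.1% to 18.5% of counts in KO cTreg and 22.4% to 24.4% in WT cTreg, against 3.19% to 3.32% in KO eTreg and 4.11% to 4.34% in WT eTreg. Of 7 B cell markers, 6 were in the table, and their summed level was 36.8 to 47.5 CPM in KO cTreg, 22.6 to 29.9 CPM in WT cTreg, 61.4 to 69.4 CPM in KO eTreg and 53.4 to 60.2 CPM in WT eTreg, most of it from Cd74. The 2 CD8 markers summed to at most 12.3 CPM in any library, the 7 myeloid markers to at most 34.8 CPM, the 5 dendritic cell markers to at most 6.87 CPM with Clec9a at 0 in all libraries and the 5 erythroid markers to at most 14.96 CPM. The 4 NK cell markers summed to 13.5 to 16.6 CPM in KO cTreg and 3.23 to 4.81 CPM in WT cTreg, without overlap, and to 2.14 to 16.2 CPM in KO eTreg and 1.27 to 3.83 CPM in WT eTreg. In cTreg most of it was Eomes, at 13.8 ± 1.09 CPM in KO cTreg and 3.77 ± 0.649 CPM in WT cTreg (SD, n = 3 each). The 4 stromal markers summed to 203 to 205 CPM in KO cTreg and 252 to 279 CPM in WT cTreg, nearly all of it Pecam1, which T cells also express.

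The comparison of KO with WT Tregs asks what loss of CD25 did to the genes of antigen receptor signalling in each subset. In cTreg, 19 of the 43 genes passed the quasi-likelihood F-test of edgeR at an adjusted p under 0.05 (Benjamini-Hochberg, over all tested genes), 15 higher and 4 lower in KO, or 44.2% of the set. The share over all tested genes was 27.5%, with 14.8% higher and 12.6% lower. In eTreg, 10 of the 43 passed, 8 higher and 2 lower, or 23.3% of the set, against 6.65% of all tested genes (3.25% higher and 3.4% lower). Of all genes called in eTreg 48.9% were higher, and 35.5% with library-size scaling without Rn45s. Without regard to the test, all KO libraries lay above or below all WT libraries for 27 of the 43 in cTreg (62.8%), 21 of them above, against 40.4% of all tested genes and 20.9% above. The same held for 16 in eTreg (37.2%), against 25.2%. The antigen receptor genes are abundant, with a median of 8.19 on the log2 CPM scale over all libraries against 4.63 for all tested genes. Among the 3798 tested genes at or above the mean log2 CPM of 5.76 of the lowest of the 43, 34.7% passed in cTreg and 10.7% in eTreg. The changes were small. An absolute log2 fold change of at least 0.5 was seen for 5 of the 43 (11.6%) in cTreg against 19.5% of all tested genes, and for 2 (4.65%) in eTreg against 8.23%. The median log2 fold change of the 43 was 0.10 in cTreg and 0.07 in eTreg, against 0.00 and 0.01 over all tested genes. The p-values measure the spread between these pooled libraries. Of the calls, 12 of 19 in cTreg (Cd4, Zap70, Lcp2, Themis, Ptpn22, Malt1, Nfatc1, Nfatc3, Nfkb2 and Tnfaip3 higher, Grap2 and Rasgrp1 lower) and 6 of 10 in eTreg (Fyn, Malt1, Nfatc3 and Tnfaip3 higher, Grap2 and Rasgrp1 lower) held under every alternative tried and without any 1 library.

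Other measures moved with genotype beside these counts. Markers of central and effector T cells differed between KO and WT cTreg: Ccr7 was at 219.6, 198 and 221 CPM in KO cTreg against 342, 311 and 319 CPM in WT cTreg, and Cd44 was at 196, 202 and 201 CPM in KO cTreg against 122, 132 and 96.7 CPM in WT cTreg. In eTreg, Ccr7 was at 60.2, 51.8 and 55.7 CPM in KO eTreg against 73.0, 85.9 and 72.8 CPM in WT eTreg, and Cd44 was at 344, 385 and 357 CPM in KO eTreg against 343, 357 and 311 CPM in WT eTreg. Every eTreg library was below every cTreg library for Ccr7, known from central T cells, and above for Cd44, known from effector T cells. In bulk RNA, a change in the share of cells that express a gene and a change in RNA per cell cannot be told apart, and the part of these markers, of the NK and B cell marker sums and of the Rn45s share in the results was not tested.

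**Figure D1:**
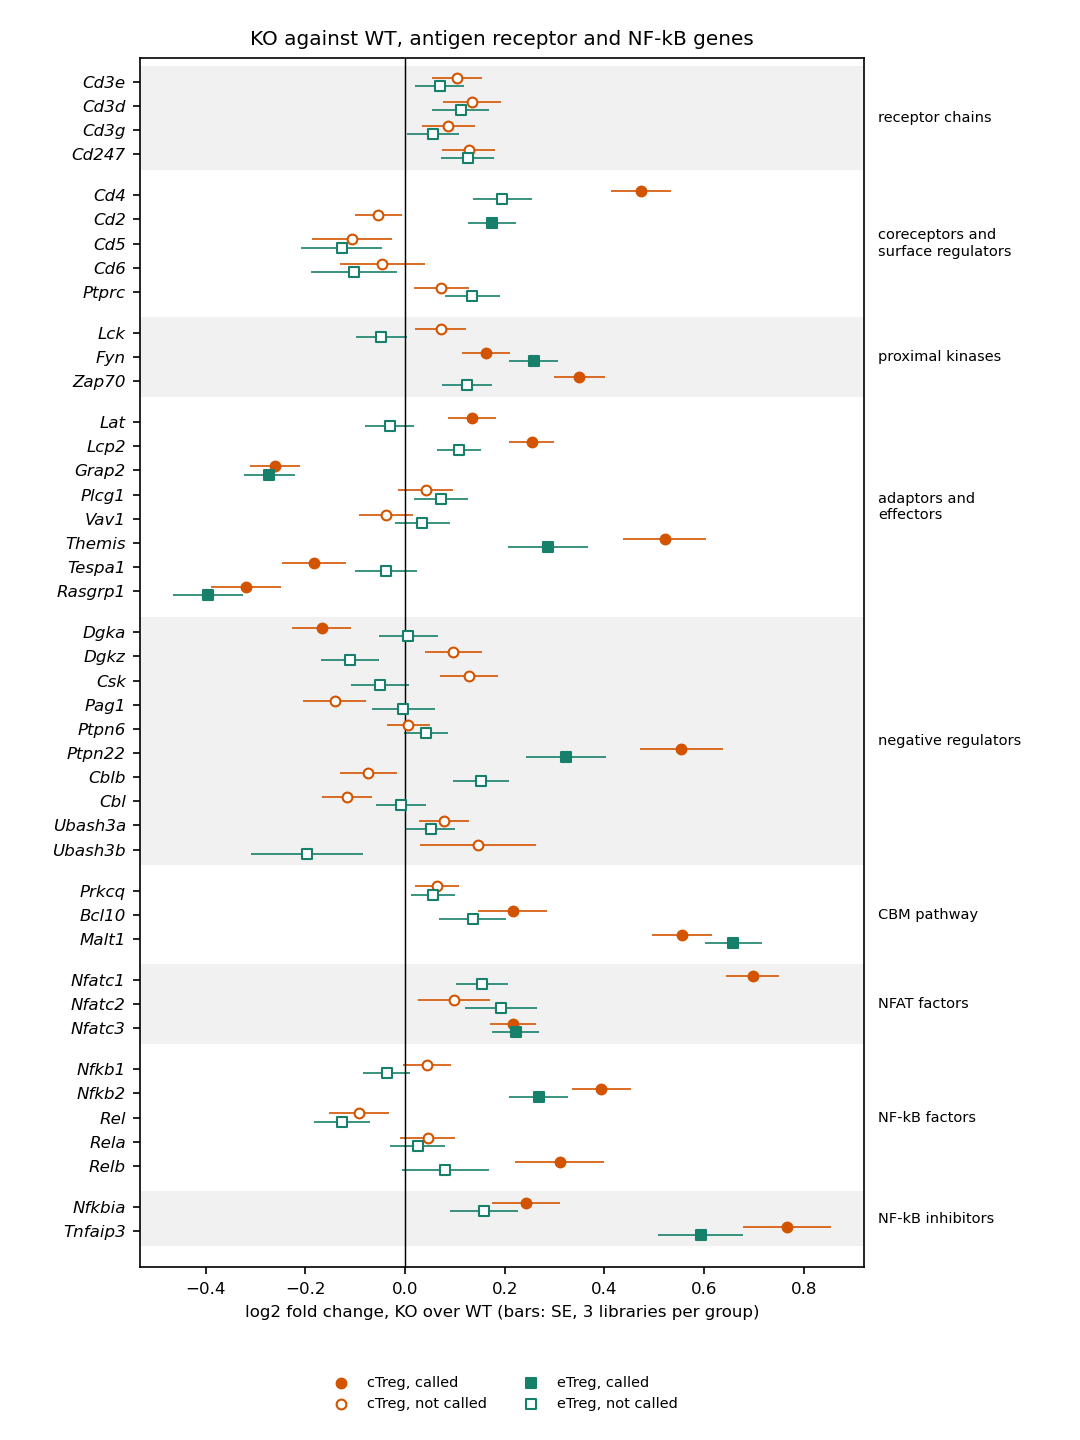
Log2 fold change of KO over WT for each of the 43 genes, grouped by role, with cTreg and eTreg as separate symbols, filled where the adjusted p was under 0.05 and with bars for the SE (3 libraries per group). Malt1, Tnfaip3, Ptpn22, Themis and Nfatc1 lie beyond 0.5 in cTreg, and Malt1 and Tnfaip3 lie beyond 0.5 in eTreg.

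None of the 4 receptor chain genes passed the test in either subset by edgeR. An unadjusted p under 0.05 was seen for 4716 of the 12461 tested genes in cTreg and 2423 in eTreg. Among the 4 receptor chain genes it was seen for 2 in cTreg and 1 in eTreg. Their log2 fold changes, KO over WT, were 0.11, 0.13, 0.09 and 0.13 for Cd3e, Cd3d, Cd3g and Cd247 in cTreg, and 0.07, 0.11, 0.06 and 0.13 in eTreg. Cd247 encodes the zeta chain, and it read 302, 292 and 289 CPM in KO cTreg, against 286, 256 and 267 CPM in WT cTreg. In eTreg it read 217, 218 and 203 CPM in KO eTreg, against 197, 202 and 185 CPM in WT eTreg. In both subsets all 3 KO libraries lay above all 3 WT libraries, by less than the test could call. Of the 5 coreceptors and surface regulators, 1 rose in each subset. Cd4, the coreceptor that brings Lck to the receptor and a marker the cells were sorted on, read 776, 771 and 804 CPM in KO cTreg, against 584, 567 and 543 CPM in WT cTreg (log2 fold change 0.47 ± 0.06, edgeR adjusted p = 1.98e-05). In eTreg Cd4 read 672, 779 and 680.2 CPM in KO eTreg, against 659, 592 and 611 CPM in WT eTreg (log2 fold change 0.20 ± 0.06, edgeR adjusted p = 0.0624). The KO libraries lay above the WT libraries in both subsets, and the difference passed in cTreg. Cd2, an adhesion receptor, rose in eTreg by 0.17 ± 0.05 (adjusted p = 0.035), a call that ended without any 1 of the 6 eTreg libraries (adjusted p up to 0.134), and also with library-size scaling without Rn45s or with no expression filter (up to 0.0769). Cd5 and Cd6, related receptors that dampen signalling, and Ptprc, the CD45 phosphatase that keeps Lck active, lay between -0.11 and 0.07 in cTreg and between -0.13 and 0.13 in eTreg and did not pass, except that Ptprc passed as higher in eTreg with the replicate block (0.12, adjusted p = 0.0381).

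Among the proximal kinases, Zap70 and Fyn rose in KO cTreg. Zap70, the kinase recruited to phosphorylated receptor chains, read 318, 329.7 and 314 CPM in KO cTreg, against 264, 247 and 244 CPM in WT cTreg (log2 fold change 0.35 ± 0.05, edgeR adjusted p = 7.67e-05). The 3 KO libraries lay above the 3 WT libraries, whereas in eTreg the log2 fold change was 0.12 ± 0.05 (adjusted p = 0.177). Fyn, a kinase related to Lck, rose in cTreg by 0.16 ± 0.05 (adjusted p = 0.02) and in eTreg by 0.26 ± 0.05 (adjusted p = 0.00366). The cTreg call of Fyn ended without KO cTreg replicate 2, KO cTreg replicate 3 or WT cTreg replicate 1 (adjusted p up to 0.0734), with the length and GC offset (0.10, adjusted p = 0.102) and with the replicate block in the 6 cTreg libraries. Lck itself lay at 0.07 in cTreg and -0.05 in eTreg and did not pass.

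The adaptors and effectors split by direction. In cTreg 3 of 8 rose (Themis, Lcp2 and Lat), 3 fell (Rasgrp1, Grap2 and Tespa1), and Plcg1 and Vav1 did not pass. Themis, a signalling protein known for its role in thymocyte selection, read 169.8, 156 and 171 CPM in KO cTreg, against 115, 118 and 112 CPM in WT cTreg (log2 fold change 0.52 ± 0.08, edgeR adjusted p = 0.000289). In eTreg Themis read 166, 210.5 and 185 CPM in KO eTreg, against 146, 171 and 143 CPM in WT eTreg (log2 fold change 0.29 ± 0.08, edgeR adjusted p = 0.048). The cTreg groups did not overlap, and the eTreg groups did. The eTreg call ended without any 1 of 9 of the 12 libraries, the exceptions being KO cTreg replicate 2, KO eTreg replicate 1 and WT eTreg replicate 2 (adjusted p up to 0.183). It also ended under 4 of the alternatives (adjusted p up to 0.163), with the length and GC offset among them (0.137). Lcp2, which encodes the scaffold SLP-76, rose in cTreg by 0.25 ± 0.05 (adjusted p = 0.000481) and lay at 0.11 ± 0.04 in eTreg (adjusted p = 0.18). Grap2, which encodes Gads, the adaptor that joins SLP-76 to LAT, went the other way.

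Grap2 read 488, 453 and 478 CPM in KO cTreg, against 561, 592 and 547 CPM in WT cTreg (log2 fold change -0.26 ± 0.05, edgeR adjusted p = 0.000973). In eTreg Grap2 read 214, 228 and 230.1 CPM in KO eTreg, against 275, 278 and 259 CPM in WT eTreg (log2 fold change -0.27 ± 0.05, edgeR adjusted p = 0.00366). All KO libraries lay below all WT libraries in both subsets, and so they did for Rasgrp1, the exchange factor that couples diacylglycerol to Ras. Rasgrp1 fell by 0.32 ± 0.07 on the log2 scale in cTreg (adjusted p = 0.00274) and by 0.39 ± 0.07 in eTreg (adjusted p = 0.00277). Lat, the membrane scaffold, rose in cTreg by 0.13 ± 0.05 (adjusted p = 0.0491), a call that ended without any 1 of 9 libraries, all but WT cTreg replicate 2, KO eTreg replicate 2 and WT eTreg replicate 1 (adjusted p up to 0.131), and under 7 of the alternatives. Tespa1, another gene of thymocyte selection, fell in cTreg (log2 fold change -0.18 ± 0.06, adjusted p = 0.0453), a call that ended without KO cTreg replicates 2 or 3, WT cTreg replicates 1 or 2, KO eTreg replicate 3 or WT eTreg replicate 3 (adjusted p up to 0.206), and under 3 alternatives.

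**Figure D2:**
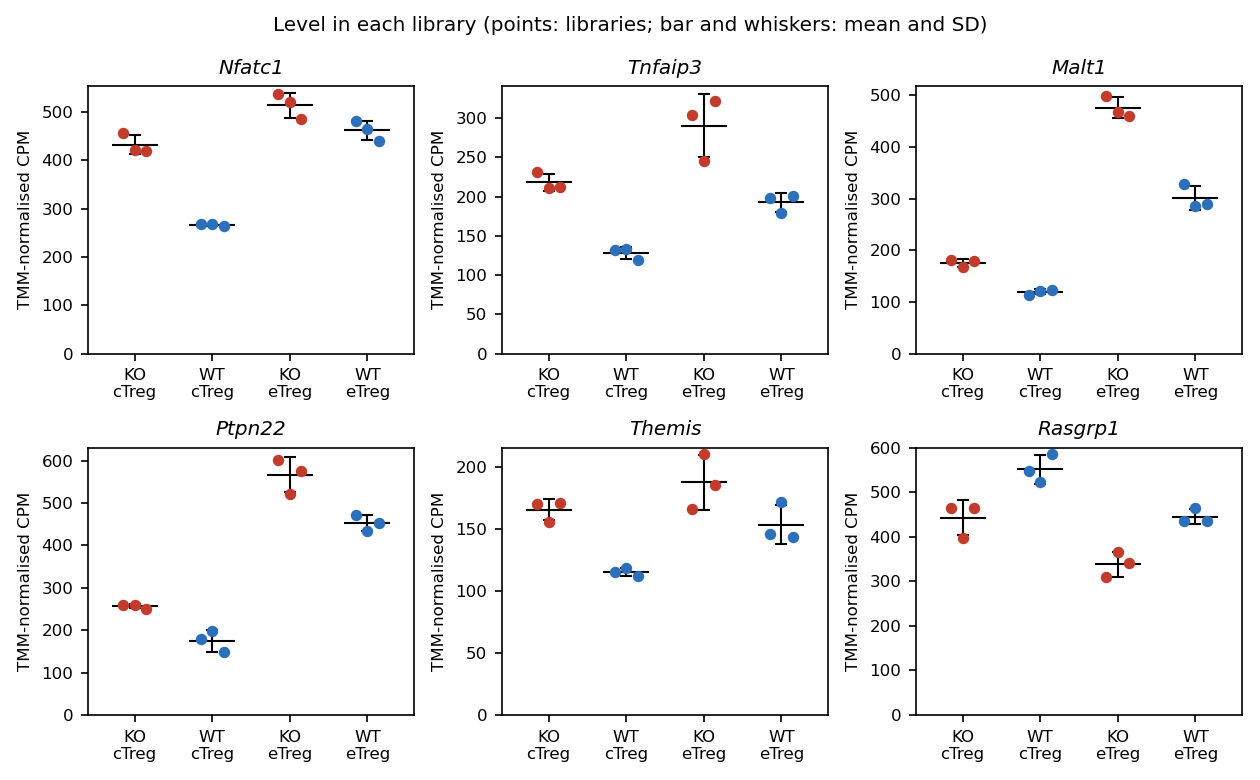
CPM of selected genes of the set in each of the 12 libraries, with KO left of WT within each subset, points for libraries, bars for the group mean and whiskers for the SD (n = 3). Malt1 and Tnfaip3 stand higher in every KO library than in every WT library of the same subset, and Nfatc1 does so with a wide gap in cTreg and a narrow one in eTreg.

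Of the 10 negative regulators, 1 rose and 1 fell in cTreg and 1 rose in eTreg. Ptpn22, a phosphatase that acts with Csk against Lck and ZAP-70, read 259, 259 and 251 CPM in KO cTreg, against 179, 197 and 148 CPM in WT cTreg (log2 fold change 0.55 ± 0.08, edgeR adjusted p = 0.000157). In eTreg Ptpn22 read 602, 521 and 576 CPM in KO eTreg, against 471, 435 and 452 CPM in WT eTreg (log2 fold change 0.32 ± 0.08, edgeR adjusted p = 0.0246). The KO libraries lay above the WT libraries in both subsets; the eTreg call ended without KO eTreg replicate 1 or 3 or WT eTreg replicate 2 or 3 (adjusted p up to 0.105). Dgka, a kinase that consumes diacylglycerol, fell in cTreg (log2 fold change -0.17 ± 0.06, adjusted p = 0.045), a call that ended without any 1 of 9 libraries, all but KO cTreg replicate 1, WT cTreg replicate 1 and KO eTreg replicate 2 (adjusted p at most 0.222), and under 4 of the alternatives. The other 8 did not pass in either subset: the kinase Dgkz, the inhibitory kinase Csk and its membrane anchor Pag1, the phosphatase gene Ptpn6, the ubiquitin ligase genes Cbl and Cblb, and Ubash3a and Ubash3b, phosphatase-family suppressors of receptor signalling. Their log2 fold changes lay between -0.14 (Pag1) and 0.15 (Ubash3b) in cTreg and between -0.20 (Ubash3b) and 0.15 (Cblb) in eTreg. With the replicate block in the 6 eTreg libraries, Cblb passed as higher (0.14, adjusted p = 0.0163), and Dgkz (-0.12, adjusted p = 0.0399) and Ubash3b (-0.21, adjusted p = 0.0253) passed as lower. With the length and GC offset Cbl and Pag1 passed as lower in cTreg (-0.21 and -0.22, adjusted p = 0.00259 and 0.0158).

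Malt1, the protease and scaffold that links the receptor to the IkB kinases, had the largest KO effect of the set in eTreg. It read 181, 168 and 179 CPM in KO cTreg, against 114, 122 and 122 CPM in WT cTreg (log2 fold change 0.56 ± 0.06, edgeR adjusted p = 4.23e-06). In eTreg it read 499, 468 and 461 CPM in KO eTreg, against 328, 287 and 289.7 CPM in WT eTreg (log2 fold change 0.66 ± 0.06, edgeR adjusted p = 2.93e-06). No KO library overlapped a WT library in either subset, and the calls were kept under every alternative and every left-out library. Its partner Bcl10 rose in cTreg by 0.22 ± 0.07 (adjusted p = 0.0285), a call that ended without KO cTreg replicate 2 or 3 or WT cTreg replicate 2 or 3 (adjusted p up to 0.11), with the length and GC offset (0.0549) or with the replicate block in the 6 cTreg libraries (0.069). Bcl10 lay at 0.14 ± 0.07 in eTreg (adjusted p = 0.28). Prkcq, which encodes protein kinase C theta upstream of both, lay at 0.06 in cTreg and 0.06 in eTreg and did not pass.

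All 3 NFAT genes were numerically higher in KO in both subsets, and Nfatc1 and Nfatc3 passed in cTreg and Nfatc3 in eTreg. Nfatc1, a factor whose own gene is induced by NFAT, read 456, 422 and 420.3 CPM in KO cTreg, against 269, 268 and 265 CPM in WT cTreg (log2 fold change 0.70 ± 0.05, edgeR adjusted p = 1.04e-07). In eTreg Nfatc1 read 537, 521 and 486 CPM in KO eTreg, against 481, 465 and 440.4 CPM in WT eTreg (log2 fold change 0.15 ± 0.05, edgeR adjusted p = 0.0913). The WT cTreg libraries stood apart below the other 9, and the KO and WT eTreg libraries did not overlap but lay close. With the replicate block in the 6 eTreg libraries Nfatc1 passed (0.14, adjusted p = 0.0118). Nfatc3 rose by 0.22 ± 0.05 in cTreg (adjusted p = 0.00231) and by 0.22 ± 0.05 in eTreg (adjusted p = 0.00797). Nfatc2, another calcium-regulated NFAT factor, lay at 0.10 in cTreg and 0.19 in eTreg and did not pass, but passed in eTreg with the block (0.19, adjusted p = 0.00412).

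Among the 5 NF-kB factors, Nfkb2 and Relb, the pair of the non-canonical branch, rose in KO cTreg, and Nfkb2 rose in KO eTreg. Nfkb2, which encodes the p100 precursor, read 149.9, 138 and 139.6 CPM in KO cTreg, against 118, 99.4 and 109 CPM in WT cTreg (log2 fold change 0.39 ± 0.06, edgeR adjusted p = 0.000116). In eTreg Nfkb2 read 140.1, 132 and 138 CPM in KO eTreg, against 116, 108 and 116 CPM in WT eTreg (log2 fold change 0.27 ± 0.06, edgeR adjusted p = 0.0108). All KO libraries lay above all WT libraries; the eTreg call ended without WT eTreg replicate 2 (adjusted p = 0.0623). Relb rose in cTreg by 0.31 ± 0.09 (adjusted p = 0.0164), a call that ended without KO cTreg replicate 1 or WT cTreg replicate 2 or 3 (adjusted p up to 0.0895), and lay at 0.08 ± 0.09 in eTreg (adjusted p = 0.682). The canonical factors did not pass in either subset: Nfkb1, which encodes p105, lay at 0.04 in cTreg and -0.04 in eTreg, Rela, which encodes p65, at 0.05 and 0.03, and Rel, which encodes c-Rel, at -0.09 and -0.13.

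Both NF-kB inhibitors rose in KO cTreg. Tnfaip3, which encodes A20, a ubiquitin-editing enzyme that restrains NF-kB, had the largest KO effect of the set in cTreg. It read 231, 212 and 212 CPM in KO cTreg, against 132, 134 and 119 CPM in WT cTreg (log2 fold change 0.77 ± 0.09, edgeR adjusted p = 2.02e-05). In eTreg it read 304, 246 and 323 CPM in KO eTreg, against 198, 179 and 201 CPM in WT eTreg (log2 fold change 0.59 ± 0.09, edgeR adjusted p = 0.000941). The groups did not overlap in either subset. Nfkbia, which encodes IkB alpha, rose in cTreg by 0.24 ± 0.07 (adjusted p = 0.0144) and lay at 0.16 ± 0.07 in eTreg (adjusted p = 0.202). Its cTreg call ended without KO cTreg replicate 3 or WT cTreg replicate 2 or 3 (adjusted p up to 0.0704) and with the length and GC offset (0.0579), and it passed in eTreg with the replicate block (0.15, adjusted p = 0.0355).

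Tnfaip3, Nfkbia, Rel and Nfkb2 are known in general to be transcribed under NF-kB itself, and their promoters are shown because they carry the letters of an NF-kB site. RefSeq promoter windows of 300 bases on GRCm38.p6, running from 250 bases before to 50 after an annotated start, were found for 34 of the 43 genes. The letters GGG, then any 2 bases, then TTTCC, searched on both strands, were in the windows of 4 of these 34 genes (11.8%), against 512 of 27025 genes with a window (1.89%). A match of letters is a description of the sequence, and binding was not measured. In the windows below the match is in capitals. In the Tnfaip3 window (chr10:19015361-19015660, minus strand) it begins 12 bases before the start, in Nfkbia (chr12:55492598-55492897, minus strand) 29 bases before, and in Rel (chr11:23770920-23771219, minus strand) 91 bases before. Nfkb2 has a match 11 bases before its first start (chr19:46304487-46304786, plus strand) and another inside the window of a start further along (chr19:46305445-46305744, plus strand). Of these 4 genes, Tnfaip3 and Nfkb2 rose in both subsets, Nfkbia rose in cTreg, and Rel did not pass in either.
Tnfaip3: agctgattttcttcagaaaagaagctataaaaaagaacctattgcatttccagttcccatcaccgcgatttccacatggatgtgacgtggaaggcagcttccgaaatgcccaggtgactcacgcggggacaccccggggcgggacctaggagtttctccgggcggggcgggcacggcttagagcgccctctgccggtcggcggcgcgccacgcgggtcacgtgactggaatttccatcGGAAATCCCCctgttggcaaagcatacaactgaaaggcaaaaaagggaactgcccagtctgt
Nfkbia: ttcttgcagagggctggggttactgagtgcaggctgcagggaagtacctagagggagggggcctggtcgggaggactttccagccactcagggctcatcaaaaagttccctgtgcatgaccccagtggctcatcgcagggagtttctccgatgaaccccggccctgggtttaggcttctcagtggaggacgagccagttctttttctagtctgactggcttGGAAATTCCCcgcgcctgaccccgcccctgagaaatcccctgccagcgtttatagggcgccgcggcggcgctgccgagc
Rel: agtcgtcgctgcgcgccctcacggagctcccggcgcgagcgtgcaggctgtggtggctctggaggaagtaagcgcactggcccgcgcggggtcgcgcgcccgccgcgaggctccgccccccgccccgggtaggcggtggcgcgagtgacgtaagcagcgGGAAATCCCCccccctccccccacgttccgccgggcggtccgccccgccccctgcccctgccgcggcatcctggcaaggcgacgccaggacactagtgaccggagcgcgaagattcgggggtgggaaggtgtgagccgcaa
Nfkb2, first start: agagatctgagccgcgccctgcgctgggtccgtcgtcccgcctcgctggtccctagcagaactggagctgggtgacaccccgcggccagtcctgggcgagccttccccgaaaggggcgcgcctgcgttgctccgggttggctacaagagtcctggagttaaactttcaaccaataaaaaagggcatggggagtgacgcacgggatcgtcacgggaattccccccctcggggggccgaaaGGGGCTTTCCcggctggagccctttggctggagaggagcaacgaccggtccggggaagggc
Nfkb2, later start: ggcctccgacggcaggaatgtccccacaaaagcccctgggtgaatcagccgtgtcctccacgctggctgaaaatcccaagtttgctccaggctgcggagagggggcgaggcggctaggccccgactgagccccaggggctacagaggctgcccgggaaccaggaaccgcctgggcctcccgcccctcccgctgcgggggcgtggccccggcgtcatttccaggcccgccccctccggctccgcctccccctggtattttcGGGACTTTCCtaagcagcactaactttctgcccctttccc

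The KO effects in cTreg and in eTreg come from different libraries, so their overlap can be counted. Of the 43 genes, 9 passed in both subsets, all in the same direction: Fyn, Themis, Ptpn22, Malt1, Nfatc3, Nfkb2 and Tnfaip3 higher, and Grap2 and Rasgrp1 lower. They were 90% of the 10 that passed in eTreg and 47.4% of the 19 that passed in cTreg. Over all tested genes, 659 passed in both in the same direction, 79.5% of those in eTreg and 19.3% of those in cTreg. The sign of the KO effect was shared for 33 of the 43 (76.7%), against 68.9% of all tested genes. KO and WT eTreg libraries of the same replicate number deviated together from their group means (correlations over genes of 0.257, 0.341 and 0.166), and when the fit to the 6 eTreg libraries was blocked by replicate number, 13 of the 43 passed as higher and 4 as lower. Over all tested genes the same block gave 921 higher and 791 lower, in place of 405 and 424 without it. The added calls among the 43 were Ptprc, Cblb, Nfatc1, Nfatc2 and Nfkbia higher and Dgkz and Ubash3b lower.

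Whether loss of CD25 acted differently in the subsets was tested by the interaction, the KO effect in eTreg minus that in cTreg. Only Nfatc1 of the 43 passed by edgeR (2.33% against 3.8% of all tested genes, 0.803% higher and 3% lower). At an unadjusted p under 0.05 there were 9 of the 43, against 2080 of the 12461 tested genes. For Nfatc1 the log2 difference was -0.54 ± 0.07 (adjusted p = 0.000415), the KO effect being 0.15 in eTreg and 0.70 in cTreg. It passed under every alternative and without any 1 library. The next 9 by p-value did not pass by edgeR. Cd2 read 509, 510.4 and 524 CPM in KO eTreg, against 458, 449 and 461 CPM in WT eTreg. In cTreg it read 392, 401 and 418 CPM in KO cTreg, against 433, 395 and 429 CPM in WT cTreg, and the difference was 0.23 ± 0.07 (adjusted p = 0.0734). For Cd4 it was -0.28 ± 0.08 (adjusted p = 0.0844), with the CPM given above. With the length and GC offset Cd2 (0.33, adjusted p = 0.00864) and Cblb passed. Cd2 also passed by the DESeq2 Wald test (0.0123) and so did Cd4 (0.0313) and Zap70 (0.0402).

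For Zap70 the difference was -0.23 ± 0.07 (adjusted p = 0.103), and in eTreg it read 236, 256 and 231 CPM in KO eTreg, against 228, 221 and 215 CPM in WT eTreg. Cblb, a ubiquitin ligase that limits activation, read 290.0, 269 and 303 CPM in KO eTreg, against 253, 246 and 277 CPM in WT eTreg. In cTreg it read 253, 232 and 235 CPM in KO cTreg, against 252, 249 and 256 CPM in WT cTreg (difference 0.23 ± 0.08, adjusted p = 0.146). The KO and WT libraries of Cblb overlapped in both subsets. Lcp2 read 586, 590.0 and 557 CPM in KO eTreg, against 542, 543 and 522 CPM in WT eTreg. In cTreg it read 421, 404 and 419.7 CPM in KO cTreg, against 341, 356 and 346 CPM in WT cTreg (difference -0.15 ± 0.06, adjusted p = 0.249). For Dgkz, Lat and Csk the differences were -0.21 ± 0.08, -0.16 ± 0.07 and -0.18 ± 0.08, and for Dgka 0.17 ± 0.08 (adjusted p from 0.194 to 0.311); their values by library follow with the subsets. Among these 9 the difference was below 0 for Cd4, Zap70, Dgkz, Lat, Lcp2 and Csk, and above 0 for Cd2, Cblb and Dgka.

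Levels per length put the genes on a common scale, as mean CPM per kilobase of the longest annotated transcript. In cTreg the highest level per length was that of Dgka, at 450.2 in KO and 505 in WT, followed by Cd2 (350.1 and 363), Lck (347 and 330.4) and Ptprc (321 and 305). In eTreg the highest was Ptprc, at 519 in KO and 473 in WT, followed by Cd2 (446 and 395) and Dgka (283 and 282). The lowest were Rel and Ubash3b, at 8.32 and 11.2 in KO cTreg, 8.87 and 10.1 in WT cTreg, 12.8 and 10.8 in KO eTreg, and 14.0 and 12.4 in WT eTreg. Of the receptor chain genes Cd3e was the highest, at 248 in KO cTreg and 231 in WT cTreg, and Cd247 the lowest, at 99.6 and 91.2. Among NF-kB factors Nfkb1 stood highest, at 99.6 in KO cTreg and 96.5 in WT cTreg. Malt1 was at place 37 of 43 in KO cTreg and at place 40 in WT cTreg, and at place 22 in KO eTreg and at place 30 in WT eTreg. The length used is that of the annotation, and the transcript each cell used was not measured.

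**Figure D3:**
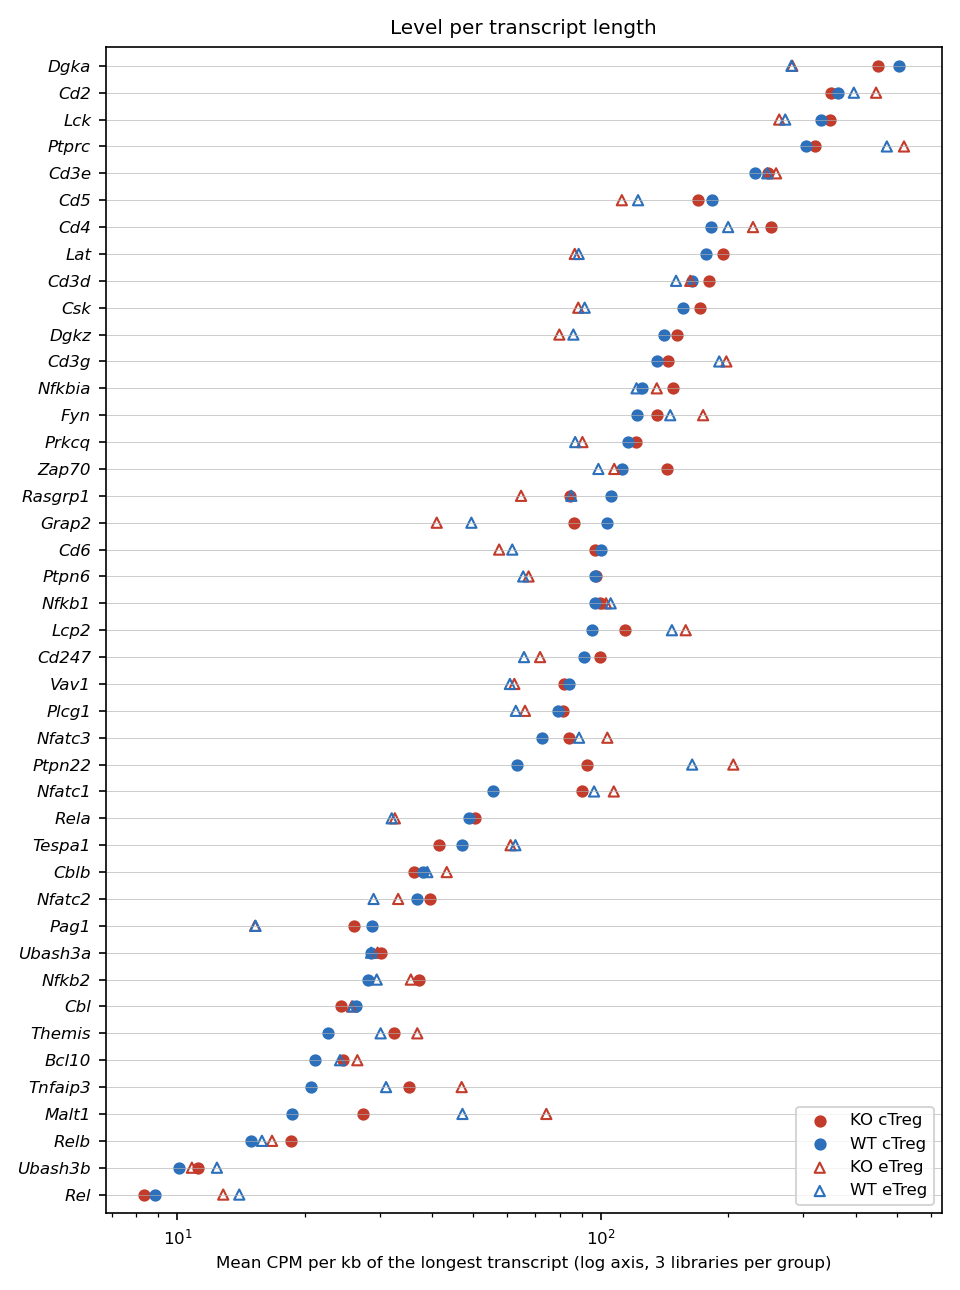
Mean CPM per kilobase of longest transcript for each of the 43 genes in the 4 groups, on a log axis, ordered within the set. Dgka leads in both cTreg groups and Ptprc in both eTreg groups, while Rel and Ubash3b stand lowest.

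The comparison of eTreg with cTreg asks how receptor signalling genes differ between effector and central Tregs, with or without CD25. It uses the same libraries as the KO comparisons, so the values stand side by side and are not independent. In KO, 33 of the 43 passed, 13 higher and 20 lower in eTreg (76.7%, against 72% of all tested genes). By direction this was 30.2% higher and 46.5% lower, against 36.1% and 35.8% of all tested genes. In WT, 34 passed, 16 higher and 18 lower (79.1%, against 71.5%), or 37.2% higher and 41.9% lower, against 35.7% and 35.8%. The libraries of the subsets did not overlap for 34 of the 43 in KO (79.1%, against 74.6% of all tested genes) and for 35 in WT (81.4%, against 74.9%), 18 of these lower in eTreg (against 37.6%). Among genes at least as abundant as the lowest of the 43, the shares called were 83.2% in KO (42% higher and 41.2% lower) and 82.4% in WT (41.1% and 41.3%). The median log2 fold change of the 43 was -0.13 in KO and 0.00 in WT, against 0.00 over all tested genes in each genotype, with an absolute change of at least 0.5 for 15 (34.9%, against 50.3%) in KO and 17 (39.5%, against 49.9%) in WT. In both genotypes, 12 genes were higher in eTreg (Cd2, Cd3g, Fyn, Lcp2, Malt1, Nfatc1, Nfatc3, Ptpn22, Ptprc, Rel, Tespa1 and Tnfaip3) and 18 lower (Cd247, Cd5, Cd6, Csk, Dgka, Dgkz, Grap2, Lat, Lck, Nfatc2, Pag1, Plcg1, Prkcq, Ptpn6, Rasgrp1, Rela, Vav1 and Zap70). Cbl, Cd3e, Nfkb2, Nfkbia, Relb and Ubash3a passed in neither. Cblb, Cd3d and Cd4 passed in KO and not in WT, and Bcl10, Nfkb1, Themis and Ubash3b in WT and not in KO. The interaction, which also tests the difference between genotypes, did not pass for these 7 by edgeR; it passed for Cd4 by the DESeq2 Wald test and for Cblb with an offset fitted on transcript length and GC content (0.27, adjusted p = 0.0486).

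GC content moved with the subset difference and is given first, because it touches each value that follows. The median GC content of the transcripts was 45.9% for the 13 genes higher in eTreg and 54.1% for the 20 lower in KO, and 45.4% for 16 and 54.2% for 18 in WT. Across the 43 genes, Pearson's r between GC content and the log2 fold change, eTreg over cTreg, was -0.678 in KO and -0.592 in WT, and across the 11947 tested genes with an annotated transcript it was -0.494 and -0.395. Genes are not independent replicates, and these values are a description; the subsets also differ in the Rn45s share given above. With an offset fitted on transcript length and GC content, 17 of the 33 calls in KO and 20 of the 34 in WT stayed in the same direction, 3 and 7 passed in the opposite direction, and 13 and 7 no longer passed. For KO against WT the relation to GC was weak (r = -0.0177 in cTreg and -0.241 in eTreg over the 43), and 15 of 19 and 9 of 10 calls stayed. The offset added 3 calls in cTreg (Cbl, Cd2 and Pag1 lower) and 4 in eTreg, all higher: Cd4 (0.21, adjusted p = 0.0245), Zap70 (0.17, adjusted p = 0.0194), Nfatc1 (0.17, adjusted p = 0.0401) and Nfatc2 (0.21, adjusted p = 0.0412). For eTreg against cTreg it added 8 calls in KO (Bcl10, Nfkb2 and Relb higher, Cbl, Cd3e, Nfkb1, Themis and Ubash3a lower). It also added 8 in WT (Cd4, Nfkb2 and Relb higher, Cbl, Cblb, Cd3d, Cd3e and Ubash3a lower). The part of GC content in the subset difference was not tested.

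**Figure D4:**
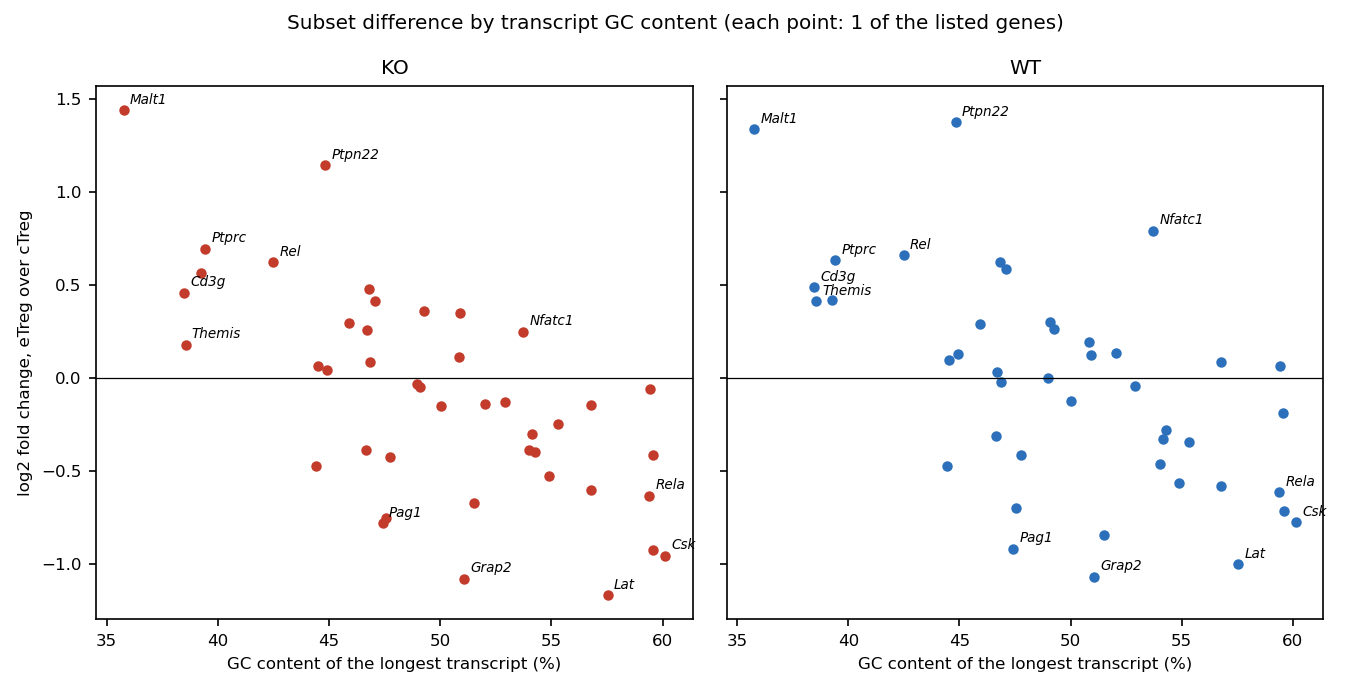
GC content of the longest transcript (percent, x axis) against the log2 fold change of eTreg over cTreg (y axis) for the 43 genes, in KO and in WT. Genes of low GC content, such as Malt1 and Ptprc, lie above 0, and many genes of high GC content, such as Csk and Lat, lie below.

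At the receptor, Cd3g was higher in eTreg by 0.46 ± 0.05 in KO and 0.49 ± 0.05 in WT, Cd247 was lower (-0.47 ± 0.05 and -0.47 ± 0.05), and Cd3e did not pass in either genotype. Under the offset both Cd3e (-0.34 in KO and -0.34 in WT) and Cd3g (-0.33 and -0.27) passed as lower. Cd3d was lower in KO (-0.15 ± 0.06, adjusted p = 0.0278), a call that ended without KO cTreg replicate 2 or 3 or KO eTreg replicate 1 or 3 (adjusted p up to 0.108), and with DESeq2 size factors, library-size scaling without Rn45s or the offset (adjusted p up to 0.145). Ptprc read 2844, 3146 and 2954 CPM in KO eTreg, against 1962, 1761 and 1803 CPM in KO cTreg. In WT it gave 2721, 2784 and 2643 CPM in WT eTreg, against 1699.8, 1815 and 1738 CPM in WT cTreg (log2 fold change 0.69 ± 0.06 in KO and 0.63 ± 0.06 in WT, edgeR adjusted p = 8.98e-09 and 2.54e-08). Every eTreg library lay above every cTreg library; under the offset the values were -0.07 in KO (adjusted p = 0.248) and -0.13 in WT, which passed as lower (adjusted p = 0.036). Cd5 read 299, 381 and 325 CPM in KO eTreg, against 481, 492 and 551 CPM in KO cTreg. The WT libraries held 367, 382 and 348 CPM in WT eTreg, against 573, 507 and 561 CPM in WT cTreg (log2 fold change -0.60 ± 0.08 in KO and -0.58 ± 0.08 in WT, edgeR adjusted p = 8.13e-06 and 1.15e-05). Cd6 read 239.8, 305 and 263 CPM in KO eTreg, against 436, 431 and 495 CPM in KO cTreg. Its WT values were 297, 298 and 272 CPM in WT eTreg, against 504, 426 and 476 CPM in WT cTreg (log2 fold change -0.75 ± 0.09 in KO and -0.70 ± 0.09 in WT, edgeR adjusted p = 2.37e-06 and 5.28e-06). For both genes every eTreg library lay below every cTreg library of its genotype, and under the offset Cd6 kept its calls (-0.95 in KO and -0.94 in WT) while Cd5 did not pass (-0.12 in KO and -0.19 in WT). Cd2 was higher in eTreg by 0.35 ± 0.05 in KO and 0.12 ± 0.05 in WT, the WT call ending without KO cTreg replicate 2, WT cTreg replicate 2 or WT eTreg replicate 1 or 3 (adjusted p up to 0.161), and with the replicate block in the 6 WT libraries (0.061). Cd4 was lower in KO (-0.14 ± 0.06, adjusted p = 0.0426) with overlapping libraries, a call that ended without KO cTreg replicate 1 or 3, KO eTreg replicate 1 or 3 or WT eTreg replicate 3 (adjusted p up to 0.169), and under 7 alternatives (up to 0.898).

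The kinases Lck and Zap70 were lower in eTreg (Lck -0.40 ± 0.05 in KO and -0.28 ± 0.05 in WT; Zap70 -0.41 ± 0.05 and -0.19 ± 0.05), and Fyn was higher (0.36 ± 0.05 and 0.26 ± 0.05). Under the offset Zap70 turned to 0.27 in KO and 0.39 in WT, passing as higher in both genotypes, and Lck did not pass. Lat had the largest fall in KO. It read 174, 186 and 174 CPM in KO eTreg, against 401, 393 and 403 CPM in KO cTreg. WT cells had 193, 175 and 178 CPM in WT eTreg, against 355, 373 and 362 CPM in WT cTreg (log2 fold change -1.16 ± 0.05 in KO and -0.999 ± 0.05 in WT, edgeR adjusted p = 9.03e-12 and 2.93e-11). Every eTreg library lay below every cTreg library, and under the offset Lat kept its calls (-0.61 in KO and -0.54 in WT).

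Grap2, the partner adaptor of Lat, had the largest fall in WT. It read 214, 228 and 230.1 CPM in KO eTreg, against 488, 453 and 478 CPM in KO cTreg. In WT it read 275, 278 and 259 CPM in WT eTreg, against 561, 592 and 547 CPM in WT cTreg (log2 fold change -1.08 ± 0.05 in KO and -1.07 ± 0.05 in WT, edgeR adjusted p = 2.54e-11 and 2.06e-11). Its libraries did not overlap between subsets, and it kept its calls under the offset (-1.05 in KO and -1.10 in WT). Lcp2 was higher in eTreg, with the CPM given above (log2 fold change 0.48 ± 0.04 in KO and 0.62 ± 0.05 in WT), and it kept its calls under the offset (0.26 in KO and 0.36 in WT). Tespa1 read 146, 139 and 139 CPM in KO eTreg, against 103, 95.5 and 89.0 CPM in KO cTreg. In WT it gave 156, 136 and 143 CPM in WT eTreg, against 116, 106 and 103 CPM in WT cTreg (log2 fold change 0.56 ± 0.06 in KO and 0.42 ± 0.06 in WT, edgeR adjusted p = 5.41e-07 and 1.6e-05). The eTreg libraries lay above the cTreg libraries, and under the offset Tespa1 passed as lower (-0.16 in KO and -0.30 in WT). Plcg1, Vav1 and Rasgrp1 were lower in eTreg in both genotypes, between -0.46 (Vav1 in WT) and -0.30 (Plcg1 in KO), and Themis was higher in WT (0.41 ± 0.08). Under the offset Themis passed as lower in both genotypes (-0.61 in KO and -0.36 in WT). Plcg1 and Vav1 lost their KO calls under the offset (-0.03 and -0.12) and kept their WT calls.

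Of the 10 negative regulators, 5 were lower in eTreg in both genotypes and 1, Ptpn22, was higher in both. In each genotype 50% of the 10 were lower, against 35.8% of all tested genes, and 41.2% in KO and 41.3% in WT of the genes as abundant as the set. Cbl and Ubash3a passed in neither genotype without the offset. Under it both passed as lower in both genotypes (Cbl -0.34 in KO and -0.50 in WT, Ubash3a -0.23 and -0.26). Dgka, the most abundant gene of the set per length in cTreg, read 818, 774 and 814 CPM in KO eTreg, against 1324, 1191 and 1312 CPM in KO cTreg. The WT libraries held 787, 831 and 778 CPM in WT eTreg, against 1333, 1422 and 1542 CPM in WT cTreg (log2 fold change -0.67 ± 0.06 in KO and -0.84 ± 0.06 in WT, edgeR adjusted p = 3.08e-08 and 1.89e-09). Dgkz, the related kinase, read 327, 355 and 316 CPM in KO eTreg, against 626, 616 and 647 CPM in KO cTreg. Its WT values were 361, 385 and 330.4 CPM in WT eTreg, against 587, 579 and 599.9 CPM in WT cTreg (log2 fold change -0.92 ± 0.06 in KO and -0.71 ± 0.06 in WT, edgeR adjusted p = 5.87e-10 and 9.9e-09). Both were lower in every eTreg library than in every cTreg library of the genotype. Csk, which phosphorylates the inhibitory tyrosine of Lck, read 239, 262 and 228 CPM in KO eTreg, against 462, 461 and 489 CPM in KO cTreg. WT cells had 264, 253 and 237 CPM in WT eTreg, against 419, 447 and 425 CPM in WT cTreg (log2 fold change -0.95 ± 0.06 in KO and -0.77 ± 0.06 in WT, edgeR adjusted p = 4.07e-10 and 3.8e-09). Pag1, the anchor of Csk, read 112, 134 and 132 CPM in KO eTreg, against 213, 213 and 222 CPM in KO cTreg. In WT it read 120.1, 125 and 133 CPM in WT eTreg, against 237, 246 and 232 CPM in WT cTreg (log2 fold change -0.78 ± 0.06 in KO and -0.92 ± 0.06 in WT, edgeR adjusted p = 1.08e-08 and 1.44e-09). The libraries of Csk and of Pag1 did not overlap between subsets in either genotype. Ptpn6, the phosphatase SHP-1, read 162, 155 and 149.9 CPM in KO eTreg, against 227, 222 and 223 CPM in KO cTreg. In WT it gave 149.7, 153 and 151 CPM in WT eTreg, against 224, 219 and 226 CPM in WT cTreg (log2 fold change -0.53 ± 0.04 in KO and -0.56 ± 0.04 in WT, edgeR adjusted p = 1.55e-08 and 6.94e-09). Dgka, Csk, Pag1 and Ptpn6 kept their calls in both genotypes under the offset, and Dgkz kept the KO call (-0.22 in KO and -0.12 in WT). The offset values were smaller for Csk (-0.25 in KO and -0.17 in WT) and Ptpn6 (-0.18 and -0.29). For Dgka they were -0.59 and -0.82, and for Pag1 -1.11 and -1.30.

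Ptpn22 went the other way. It read 602, 521 and 576 CPM in KO eTreg, against 259, 259 and 251 CPM in KO cTreg. The WT libraries held 471, 435 and 452 CPM in WT eTreg, against 179, 197 and 148 CPM in WT cTreg (log2 fold change 1.14 ± 0.08 in KO and 1.38 ± 0.08 in WT, edgeR adjusted p = 8.98e-09 and 1.35e-09), and under the offset 0.76 in KO and 0.95 in WT. The 6 eTreg libraries all lay above the 6 cTreg libraries. Cblb was higher in eTreg in KO (0.26 ± 0.06), a call that ended under the offset (-0.07, and -0.35 in WT, which passed as lower), and Ubash3b in WT (0.30 ± 0.11, adjusted p = 0.0331), the second call ending without WT cTreg replicate 1 or 3 or WT eTreg replicate 2 (adjusted p up to 0.135), with no expression filter and with the offset (up to 0.522).

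Malt1 had the largest rise in KO of the 43 between subsets, log2 fold change 1.44 ± 0.06 in KO and 1.34 ± 0.06 in WT, edgeR adjusted p = 6.46e-12 and 1.07e-11, with the library values given above. Its lowest eTreg library was above its highest cTreg library in each genotype, and the calls stayed under the offset (0.43 in KO and 0.38 in WT). Prkcq was lower in eTreg (-0.42 ± 0.04 and -0.42 ± 0.04). Bcl10 was higher in WT (0.19 ± 0.07, adjusted p = 0.0182), a call that ended without WT cTreg replicate 2 or 3 or WT eTreg replicate 3 (adjusted p up to 0.0874). Nfatc1 was higher in eTreg by 0.25 ± 0.05 in KO and 0.79 ± 0.05 in WT and kept both calls under the offset. Nfatc3 was higher (0.30 ± 0.05 and 0.29 ± 0.05) and Nfatc2 lower (-0.25 ± 0.07 and -0.34 ± 0.07); under the offset Nfatc3 lay below 0 (-0.06 in KO and -0.11 in WT, the WT value passing as lower, adjusted p = 0.0346) and Nfatc2 did not pass.

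The NF-kB factors Rel and Rela, the main activating subunits in T cells, differed in opposite directions between subsets. Rel read 94.3, 96.2 and 96.8 CPM in KO eTreg, against 66.0, 61.3 and 59.1 CPM in KO cTreg. Its WT values were 97.1, 108 and 108 CPM in WT eTreg, against 69.5, 63.9 and 65.2 CPM in WT cTreg (log2 fold change 0.62 ± 0.06 in KO and 0.66 ± 0.06 in WT, edgeR adjusted p = 5.43e-08 and 2.78e-08). Rela read 89.2, 83.7 and 92.8 CPM in KO eTreg, against 138, 138 and 135 CPM in KO cTreg. WT cells had 90.3, 84.3 and 86.6 CPM in WT eTreg, against 143, 128 and 128 CPM in WT cTreg (log2 fold change -0.63 ± 0.05 in KO and -0.61 ± 0.06 in WT, edgeR adjusted p = 2.45e-08 and 3.71e-08). Neither overlapped between subsets, and neither passed under the offset, where Rel was at -0.01 in KO and 0.00 in WT and Rela at 0.03 in KO and -0.05 in WT. Nfkb1 was higher in WT eTreg (0.13 ± 0.05, adjusted p = 0.0244), a call that ended without KO cTreg replicate 2, WT cTreg replicate 2 or 3 or WT eTreg replicate 2 or 3 (adjusted p up to 0.0994), and with the replicate block in the 6 libraries (0.055). Under the offset Nfkb1 passed as lower in both genotypes (-0.30 in KO and -0.27 in WT, adjusted p = 1.87e-05 and 5.44e-05). Tnfaip3 was higher in eTreg by 0.41 ± 0.09 in KO and 0.59 ± 0.09 in WT and kept the WT call under the offset (0.12 in KO and 0.25 in WT). Nfkb2, Relb and Nfkbia did not pass in either genotype, with log2 fold changes between -0.15 (Relb in KO) and 0.08 (Relb in WT). In KO, every eTreg library lay below every cTreg library for Relb and Nfkbia. With the replicate block in the 6 KO libraries Nfkbia passed as lower in eTreg (-0.13, adjusted p = 0.0226). Under the offset Nfkb2 passed as higher in eTreg (0.64 in KO and 0.66 in WT, adjusted p = 1.24e-07 and 6.81e-08), and so did Relb (0.35 and 0.49, adjusted p = 0.00219 and 0.000107).

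**Figure D5:**
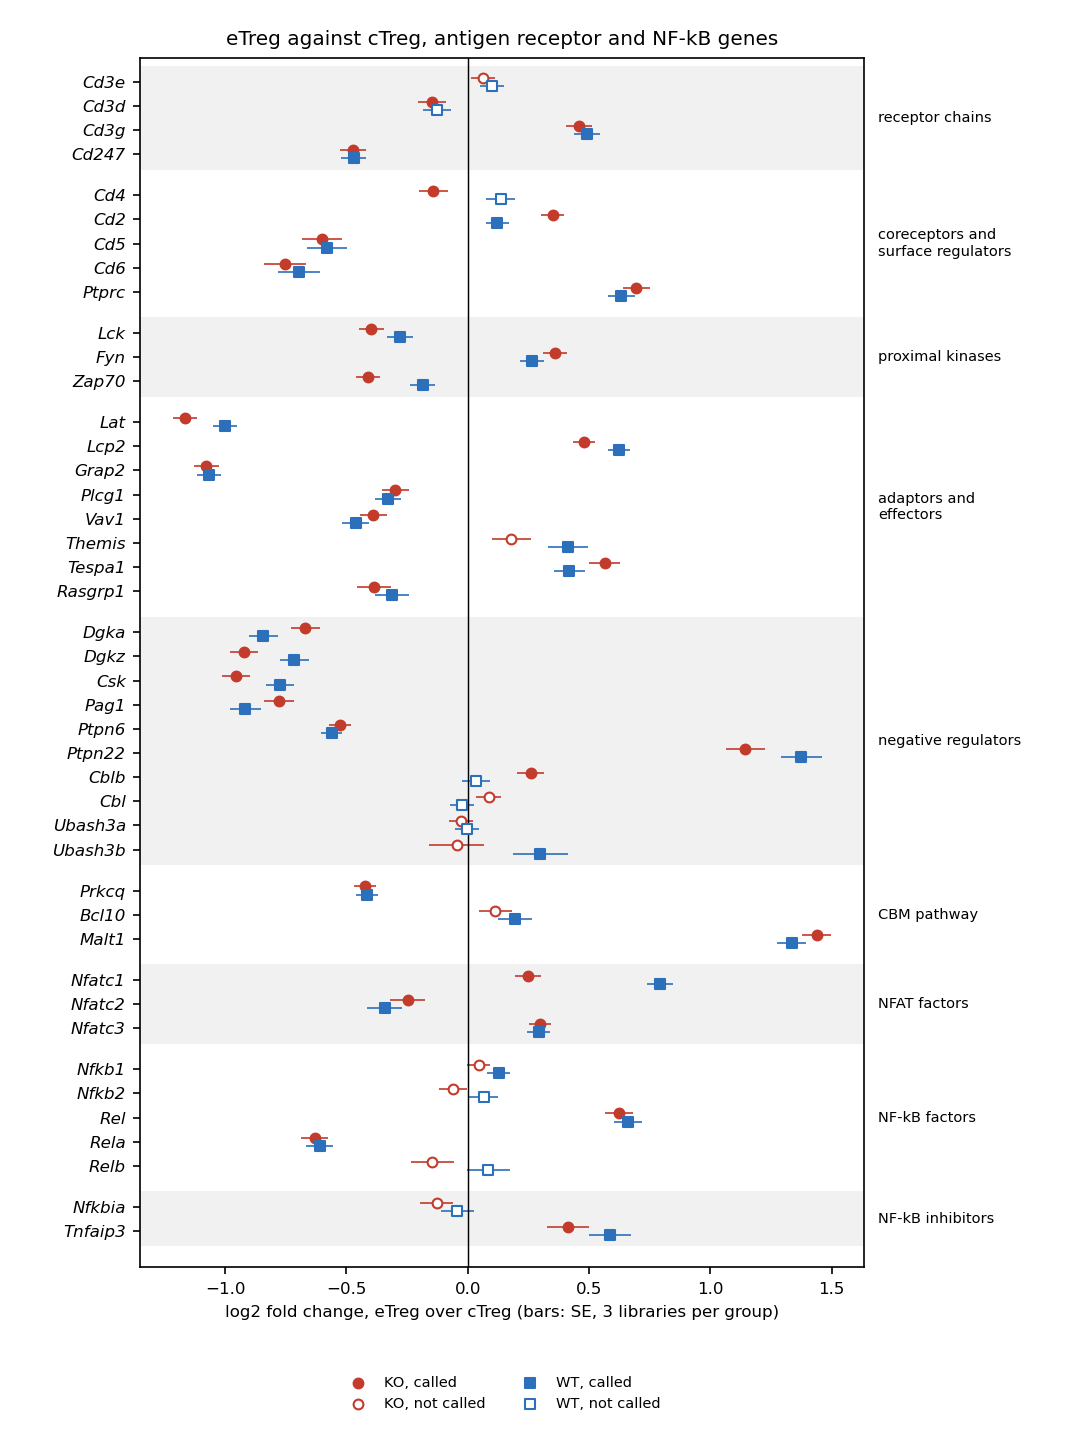
Log2 fold change of eTreg over cTreg for each of the 43 genes, grouped by role, with KO and WT as separate symbols, filled where the adjusted p was under 0.05 and with bars for the SE (3 libraries per group). Malt1 and Ptpn22 lie highest, and Lat and Grap2 lowest, in both genotypes.

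Other genes of the pathway, from 4 lists of genes outside the set, were counted in the same way. Over all tested genes the share called was 27.5% in cTreg and 6.65% in eTreg. Of 36 further genes of proximal signalling, 15 rose and 7 fell in KO cTreg (61.1% called), and 6 rose and 2 fell in KO eTreg (22.2%). The adaptor gene Sla, whose product lowers receptor levels, rose by 0.70 ± 0.05 in cTreg and 0.37 ± 0.05 in eTreg, and the ubiquitin ligase gene Nedd4l fell (-0.70 ± 0.11 and -0.50 ± 0.12). Gab2, a docking protein, was low, at 1.56, 3.84 and 1.45 CPM in KO cTreg, against 0.160, 0 and 0.154 CPM in WT cTreg, and passed as higher in both subsets. Txk, a Tec-family kinase, fell in cTreg (-0.42 ± 0.12), and Pik3r1, a regulatory subunit of phosphoinositide 3-kinase, fell in eTreg (-0.27 ± 0.07). Of 25 tested genes of calcium and calcineurin signalling, 6 rose and 4 fell in KO cTreg (40% called), and 1 rose and 1 fell in KO eTreg (8%). Ppp3cc, a catalytic subunit of calcineurin, rose in cTreg by 0.81 ± 0.08, and Itpr1, a calcium release channel, rose in both subsets (0.52 ± 0.05 and 0.36 ± 0.05). Rcan3, of the family of calcineurin regulators, fell in both (-1.004 ± 0.08 and -0.60 ± 0.09), and Homer3 fell in cTreg (-0.64 ± 0.19). The interaction passed for Ppp3cc (-0.70 ± 0.11, adjusted p = 0.00173), as it did for Nfatc1.

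Of 37 tested genes of the IkB kinase pathway, 7 rose and 6 fell in KO cTreg (35.1% called), and 2 rose and 1 fell in KO eTreg (8.11%). Tnip2, a partner of A20, and Ube2v1, a ubiquitin-conjugating cofactor, rose in cTreg (0.51 ± 0.10 and 0.36 ± 0.09), and Nfkbiz and Traf6 fell (-0.43 ± 0.08 and -0.35 ± 0.06). In eTreg the deubiquitinase genes Otud7b and Cyld rose (0.19 ± 0.05 and 0.16 ± 0.05) and Traf6 fell (-0.20 ± 0.06, adjusted p = 0.04996). Of 26 tested genes commonly induced by NF-kB, 11 rose and 4 fell in KO cTreg (57.7% called), and 6 rose and 3 fell in KO eTreg (34.6%). The cytokine genes Lta and Tnf fell in both subsets. Lta read 16.9, 15.7 and 17.2 CPM in KO cTreg, against 50.8, 41.2 and 41.1 CPM in WT cTreg (log2 fold change -1.42 ± 0.09, edgeR adjusted p = 3.47e-08). In eTreg it read 14.4, 13.4 and 13.2 CPM in KO eTreg, against 35.4, 42.2 and 39.0 CPM in WT eTreg (log2 fold change -1.51 ± 0.09, edgeR adjusted p = 4.81e-08). Tnf fell by 0.69 ± 0.13 on the log2 scale in cTreg and by 0.70 ± 0.12 in eTreg. The chemokine gene Cxcl10 read 5.56, 5.49 and 3.56 CPM in KO cTreg, against 2.00, 0.721 and 0.307 CPM in WT cTreg (log2 fold change 2.28 ± 0.45, edgeR adjusted p = 0.00328). Bcl2a1d, of the Bcl-2 family, rose in eTreg by 0.39 ± 0.11. Il2 passed as higher in KO cTreg, and Ccl3 in KO eTreg, at levels near 0. Il2 read 1.19, 0.914 and 0.462 CPM in KO cTreg, against 0.481, 0.0721 and 0.0768 CPM in WT cTreg, with overlap between the groups. Ccl3 read 0.693, 0.893 and 0.665 CPM in KO eTreg, against 0.0605, 0 and 0.0566 CPM in WT eTreg.

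In the interaction, 1 proximal signalling gene passed as higher and 3 as lower (11.1%, against 3.8% of all tested genes). Among calcium genes 1 passed as lower (4%), and among IkB kinase pathway genes 1 as lower (2.7%). Genes commonly induced by NF-kB had 1 higher and 4 lower (19.2%). Not all of these are named. Gab2, with few counts in WT cTreg, Cd28 (-0.49 ± 0.09), Traf5 (-0.32 ± 0.08), Ebi3 (-1.31 ± 0.25) and Bcl2a1d (-1.19 ± 0.19) passed with a lower KO effect in eTreg than in cTreg, and Rasa2 (0.35 ± 0.07) and Tnfrsf18 (0.43 ± 0.11) with a higher one. Between subsets, proximal signalling genes split 16 higher and 17 lower in KO and 16 and 15 in WT, calcium genes 12 and 10 in KO and 13 and 9 in WT, and IkB kinase pathway genes 12 and 15 in KO and 12 and 18 in WT. Of the 26 genes commonly induced by NF-kB, 16 were higher (61.5%) and 5 lower (19.2%) in KO and 15 higher (57.7%) and 5 lower (19.2%) in WT, against 36.1% higher and 35.8% lower of all tested genes in KO and 35.7% and 35.8% in WT, with a median log2 fold change of 0.32 in KO and 0.30 in WT. Under the offset, added after the values were seen, 18 were higher and 3 lower in KO and 15 and 5 in WT. The proximal list then had 8 higher in KO and 10 in WT, the calcium list 7 and 6, and the IkB kinase list 9 and 7. Lower counts of these 3 lists stayed within 1.5 times of the reported ones. The same offset gave 2794 higher in KO and 2548 in WT over all tested genes, in place of 4503 and 4449. Of all calls, 40.2% in KO and 34% in WT were then higher, in place of 50.2% and 49.9%. Among the NF-kB-induced genes the extremes were Ccl3, near 0 in cTreg, and Cxcl10 in KO (Cxcl10 2.63 ± 0.28) and Cxcl10 and Bcl2a1d in WT (4.03 ± 0.38 and 2.99 ± 0.14), with Junb (-1.39 ± 0.22 in KO and -1.37 ± 0.23 in WT) and Ltb (-0.99 ± 0.06 and -1.03 ± 0.06) lowest. Rnf128, the ubiquitin ligase GRAIL, was higher in eTreg (2.58 ± 0.30 in KO and 3.19 ± 0.34 in WT), and Nfat5 likewise (1.01 ± 0.13 and 0.97 ± 0.13). Txk (-1.53 ± 0.13 and -1.65 ± 0.12), Homer3 (-1.86 ± 0.22 and -1.81 ± 0.20) and Rbck1, of the linear ubiquitin ligase complex (-1.18 ± 0.05 and -1.11 ± 0.05), were among the largest falls of their lists in both genotypes.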

How the data were processed

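Bulk RNA sequencing of 12 libraries, 3 in each of 4 groups, was read from 1 table of raw counts for each gene symbol, as deposited by the authors. Per the labels' protocols, Qiagen RNeasy served for total RNA, and the KAPA library kit removes ribosomal RNA. HISAT2 2.2.1, mm10 and Cell Ranger are named in the submitters' processing notes with no role. The counting tool, annotation and strand setting were not among the sources at hand, so reads of overlapping and antisense genes cannot be told apart.

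Counts were fitted over all 12 libraries in R 4.3.3 with edgeR 4.0.16: filterByExpr kept 12461 genes, scaling was TMM, dispersions were robust (common biological coefficient of variation 0.0768), and each of 5 contrasts was tested two-sided with the quasi-likelihood F-test and adjusted over the 12461 genes. SE is the absolute log2 fold change over the square root of F. CPM were scaled by TMM on the totals of tested genes. Lengths, GC content and coordinates come from GENCODE vM21 (mm10), and the promoter windows from RefSeq. Alternatives were size factors or the Wald test from DESeq2 1.42.0, voom weights in limma 3.58.1, library-size scaling without Rn45s, no filter or a stricter filter (3 libraries at or above 1 CPM), a replicate block in 12 or 6 libraries, the 6 libraries of a comparison alone, a spline offset on transcript length and GC content (annotated for 95.9% of tested genes), and leaving out each library. The scripts were checked on simulated counts with known changes in genes drawn from all levels. Of 100 genes changed 1.5-fold between KO and WT, 68 were recovered in cTreg and 65 in eTreg. Of 100 changed 2-fold, 84 and 89 were recovered. Smaller changes were not simulated.

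The genes described, the 4 lists of other pathway genes and the marker lists were chosen with earlier results of these data known. Values in every library are given for genes of the set called with an absolute log2 fold change of at least 0.5, and for the 10 with the lowest interaction p; of the other lists, up to 2 called genes in each direction per comparison are named. Of 5 markers of T cells in general, 2 were used here and summed to 955 to 1001 CPM in KO cTreg, 782 to 835 CPM in WT cTreg, 1115 to 1175 CPM in KO eTreg and 1050.0 to 1100 CPM in WT eTreg. The summed level of the markers of central and effector cells is not reported here. The 4 Treg markers other than the targeted Il2ra summed to 1243 to 1264 CPM in KO cTreg, 1196 to 1261 CPM in WT cTreg, 2666 to 2857 CPM in KO eTreg and 2439 to 2565 CPM in WT eTreg. No label ties replicate numbers to a litter or day. Same-numbered KO and WT cTreg libraries had correlations of -0.105, 0.00473 and 0.0622 over genes. The KO and WT eTreg libraries had 0.257, 0.341 and 0.166, against at most 0.0707 for unlike numbers, so the eTreg numbers may pair the libraries. This is not settled, because an unlike-numbered pair elsewhere reached 0.223 (WT cTreg replicate 2 with WT eTreg replicate 1). Same-numbered cTreg and eTreg libraries had 0.229, 0.0386 and -0.0746 in KO and -0.0532, -0.175 and 0.0222 in WT. The reported p-values come from fits without a replicate block. The block was tried as an alternative, and it added calls in eTreg. Counts of libraries within a group differed beyond counting error, with chi-squared values of 3.68 to 10.3 for each degree of freedom, so none was treated as a duplicate. All 12 libraries entered the reported fits.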

Additional observations from a re-analysis of the deposited data

Results flagged for a closer look

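Nfatc1 was singled out because its KO effect differed between the subsets by a test of the difference itself. The interaction, the KO effect in eTreg minus that in cTreg, was -0.542 on the log2 scale. No gene of the set was checked for outlying libraries, because each group has 3.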

How the results depend on the processing

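Counts of the 43 genes called kept within 1.5 times of the reported ones under every alternative, except as follows. For KO against WT in cTreg, the 4 lower calls became 7 with the length and GC offset, 2 with the 6 libraries alone and 2 with the replicate block in them, and 2 to 4 without 1 library, the 2 being without KO cTreg replicate 2 or 3, WT cTreg replicate 2, KO eTreg replicate 3 or WT eTreg replicate 3. For KO against WT in eTreg, the replicate block in the 6 libraries gave 13 higher and 4 lower in place of 8 and 2, and leaving out 1 library gave 5 to 8 higher, the 5 being without KO eTreg replicate 3, WT eTreg replicate 2 or WT eTreg replicate 3. The block over 12 libraries moved no count of the 43 by over 1.5 times. In the interaction, the DESeq2 Wald test gave 1 higher and 3 lower, the offset 2 higher, and scaling without Rn45s 2 lower, in place of 0 and 1; without 1 library there were 0 to 1 higher (1 without WT cTreg replicate 2) and 1 to 3 lower (3 without KO eTreg replicate 2). Of the lists outside the set, with DESeq2 size factors the eTreg calcium list had 2 higher in place of 1, the eTreg IkB kinase list 0 lower in place of 1 and the interaction 2 lower in the IkB kinase list; with the block over 12 libraries the eTreg calcium list had 2 lower in place of 1, the eTreg IkB kinase list 0 lower, and the interaction 5 lower among proximal genes. The offset, added for these lists after the data were seen, gave 11 lower in the cTreg IkB kinase list in place of 6, in eTreg 2 higher in the calcium list and 1 in the IkB kinase list in place of 1 and 2, and in the interaction 2 higher among proximal genes, 2 among calcium genes and 1 higher with 0 lower in the IkB kinase list, in place of 1, 0, 0 and 1. The sign of the eTreg against cTreg difference turned with the length and GC offset for 16 genes of the set in KO and 10 in WT, among them Nfkbia (0.15 in KO and 0.14 in WT), which passed with neither; the cause was not tested. For the others and Il2ra, the targeted gene, the log2 fold changes with the offset in KO were Cd3e -0.34, Cd3g -0.33, Ptprc -0.0683, Zap70 0.27, Themis -0.61, Tespa1 -0.16, Cblb -0.0731, Cbl -0.34, Nfatc2 0.0381, Nfatc3 -0.064, Nfkb1 -0.30, Nfkb2 0.64, Rel -0.00815, Rela 0.0253, Relb 0.35 and Il2ra -0.29, and in WT Cd3e -0.34, Cd3g -0.27, Ptprc -0.13, Zap70 0.39, Themis -0.36, Tespa1 -0.30, Cblb -0.35, Nfatc3 -0.11 and Nfkb1 -0.27. Over all tested genes, the block gave 921 higher and 791 lower for KO against WT in eTreg in place of 405 and 424, the offset gave 2794 higher in KO and 2548 in WT for eTreg against cTreg in place of 4503 and 4449, and 302 higher for the interaction in place of 100. Without 1 library, the counts over all tested genes for KO against WT in eTreg were 213 to 438 higher and 225 to 452 lower, with 237 higher and 225 lower without KO eTreg replicate 3, 213 and 242 without WT eTreg replicate 2, 235 and 262 without WT eTreg replicate 3, and 267 higher without KO eTreg replicate 1; in the interaction they were 60 to 138 higher, with 60 without KO cTreg replicate 2 and 62 without KO eTreg replicate 3. The offset moved the higher share of calls to 40% in KO cTreg (54% without it), to 40.2% and 34% for eTreg against cTreg in KO and WT (50.2% and 49.9%) and to 47.1% in the interaction (21.1%), and scaling without Rn45s moved it to 35.5% in KO eTreg (48.9%). The lowest of the 43 genes averaged 5.76 on the log2 CPM scale, and the part of depth in their calls was not tested.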
